A study of Mus musculus with 53 samples.

Results

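Myc and 35 genes of ribosome biogenesis were followed at the mRNA level in mouse bone marrow-derived macrophages (BMDMs) given interleukin-4 (IL-4). The genes were taken as a list of names, with no threshold on their values, though earlier results of these data were known. All 36 were found among the 23847 loci listed in each sample. Each of the 36 reached 1 FPKM (a level per length of transcript and per mapped fragments of the library) in at least 1 sample and was tested together with all 11146 loci that did so. BMDMs are primary macrophages grown from bone marrow progenitors, here for 6 days in medium with supernatant of L929 cells as the source of M-CSF. The marrow came from WT mice and from mice with a full-body Stat6 knockout, labelled Stat6KO and here written Stat6-/-, all on C57BL/6 and 8 to 12 weeks old. In both genotypes, cells received IL-4 at 20 ng/ml for 1, 3, 6 or 24 h or were kept as controls of the same times, and a further control was taken at 0 h. WT groups held 4 samples, apart from WT cells after 24 h of IL-4, where 3 were analysed here, and each Stat6-/- group held 2. The study describes its WT data as coming from individual animals, and the labels do not say whether the same replicate number in different groups marks the same animal.

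The 53 samples had no read totals in their tables, so depth is known only relative to the median library. It ranged from 0.706 to 1.555 times that median, as read from the steps of FPKM values at low loci. The macrophage markers Csf1r (610 to 1081 FPKM) and Cd68 (780 to 1678 FPKM) were high in every sample. Mertk was lower, at 4.60 to 28.4 FPKM, and Lyz2 was listed at 0 in 7 samples. Of 28 markers of other blood and stromal cells, 19 stayed under 1 FPKM in every sample. The neutrophil markers S100a8 (80.7 to 478 FPKM) and S100a9 (103 to 437 FPKM) were high in every sample. Elane, Mpo, Camp and the B cell marker Cd79b also stayed above 1 FPKM in every sample. Stat6 lay at 58.7 to 90.6 FPKM in the 35 WT samples and at 14.3 to 24.0 FPKM in the 18 Stat6-/- samples. The genotypes did not overlap, though Stat6 reads were still present in the knockout.

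Ribosome biogenesis takes place mainly in the nucleolus. RNA polymerase I makes a long precursor of ribosomal RNA there, small nucleolar ribonucleoproteins (snoRNPs) modify and help to cleave it, and assembly factors build it into the small and the large ribosomal subunit. Myc is a transcription factor that pairs with Max, binds the E-box, CACGTG, and is known for raising the expression of many genes of this pathway. IL-4 acts on macrophages through the IL-4 receptor and the transcription factor STAT6.

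The letters of the E-box were looked for in the promoters of the genes, since Myc binds them, and the stretches that hold them are shown. RefSeq promoter sequences (GRCm38.p6, 250 bases before to 50 bases after the start site) matched 30 of the 36 genes, with no entry for Myc, Npm1, Fbl, Rrp12, Rrs1 and Bop1. CACGTG, which reads the same on both strands, was present in 7 of the 30 (23.33%), against 8.093% of 27025 genes and 12.26% of 8302 tested genes with a promoter sequence. The 7 windows are given in the direction of transcription, with the E-box in capitals and up to 12 bases on either side. Those of Mybbp1a and Utp20 end where the promoter sequence ends.
Nop2, chr6:125131811-125131840, + strand: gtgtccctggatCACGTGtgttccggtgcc
Pes1, chr11:3963965-3963994, + strand: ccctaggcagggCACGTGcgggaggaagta
Wdr43, chr17:71616220-71616249, + strand: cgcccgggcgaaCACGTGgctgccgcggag
Tsr1, chr11:74898092-74898121, + strand: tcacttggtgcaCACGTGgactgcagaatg
Ltv1, chr10:13193092-13193121, - strand: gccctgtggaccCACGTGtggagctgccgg
Utp20, chr10:88826765-88826789, - strand: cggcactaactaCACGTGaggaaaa
Mybbp1a, chr11:72441355-72441376, + strand: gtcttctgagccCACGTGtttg
Counted from the RefSeq start site, the box of Nop2 began at base -60 and the boxes of the other six genes at bases 3 to 41 after it. The letters TTC and GAA with any 4 bases between them have a spacing bound by STAT factors and read the same on both strands. They stood in the windows of Bysl, Ddx21, Dkc1, Nop14 and Nop16 (16.67% of 30), against 8.007% of genes and 6.685% of tested genes. No gene had both. A match describes the letters in these windows and not binding.

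Some of the genes have a further feature in the annotation. In GENCODE M21, 8 of the 36 genes (22.22%) enclosed at least 1 snoRNA gene on their own strand, against 1.888% of 10382 tested loci. These were Ncl, Nop56, Nop58, Dkc1, Wdr43, Ppan, Gnl3 and Tsr1, with 23 snoRNA genes among them. Nop56 held 5, Snord57 and Snord110 included. The libraries were made from polyadenylated RNA, so the values describe the host mRNAs. Counting is not stated to have used strand, and 16 of the 36 genes overlap an exon of a gene on the opposite strand, Tsr1 and Srr by 616 bases, Bysl and Ccnd3 by 361 and Heatr1 and Lgals8 by 155. Reads of these stretches cannot be told apart.

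In WT cells at 0 h the levels of the 36 genes spanned from 38.1 ± 5.00 FPKM (SD, n = 4) for Npm1 to 1.86 ± 0.32 FPKM (SD, n = 4) for Wdr12. Npm1 (nucleophosmin) overlapped Ncl (nucleolin, 33.8 ± 0.55 FPKM), the next gene in order, and both are abundant nucleolar RNA-binding proteins. Myc lay near the middle of the order at 6.67 ± 0.67 FPKM, next to Ppan and Nip7, whose samples overlapped its own, with its 4 samples at 5.94, 6.81, 6.41 and 7.51 FPKM. FPKM is a level per length of transcript, so these levels can be set beside each other. No gene differed between Stat6-/- and WT cells at 0 h at an adjusted p under 0.05 (limma), where 2.18% of all tested loci did. Ncl and Noc4l had unadjusted p under 0.05 in that comparison, with log2 differences of -0.21 and 0.24 and adjusted p of 0.261 and 0.287. At that unadjusted threshold 1564 of the 11146 loci were called. Myc stood at 8.34 and 5.93 FPKM in the Stat6-/- samples at 0 h, on either side of every WT sample.

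Myc rose at every time after IL-4 in WT cells. The gene lies on chromosome 15 at 61985341 to 61990361 on the plus strand (GRCm38, mm10). At 1 h its 4 IL-4 samples stood at 27.9, 34.7, 33.6 and 29.8 FPKM and its 4 controls at 5.00, 5.80, 4.76 and 4.88 FPKM. The groups were far apart, with a 6.16-fold ratio of means and a log2 change of 2.41 ± 0.13 (SE, adjusted p = 1.50e-17). All log2 changes here are differences of log2(FPKM + 1), IL-4 minus control, from limma, with Benjamini-Hochberg adjustment of p over the 11146 loci.

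The increase of Myc was smaller at the middle times. At 3 h the IL-4 samples stood at 23.0, 23.9, 20.6 and 21.2 FPKM against 6.51, 7.52, 5.81 and 6.12 FPKM in controls, a 3.41-fold ratio. At 6 h they stood at 17.4, 23.4, 18.8 and 17.6 FPKM against 5.61, 8.33, 5.58 and 6.55 FPKM, a 2.96-fold ratio and a log2 change of 1.44 ± 0.13 (SE, adjusted p = 1.22e-11). The 95% interval of the log2 change was 2.14 to 2.68 at 1 h and 1.17 to 1.71 at 6 h, and these intervals did not overlap. At 24 h the 3 IL-4 samples stood at 29.9, 27.4 and 24.5 FPKM and the 4 controls at 4.38, 5.39, 4.99 and 5.50 FPKM, a 5.38-fold ratio and a log2 change of 2.22 ± 0.14 (SE, adjusted p = 8.51e-16). Over all times, the lowest of the 15 WT samples with IL-4 (17.4 FPKM) was above the highest of the 38 other samples (9.52 FPKM).

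**Figure D1:**
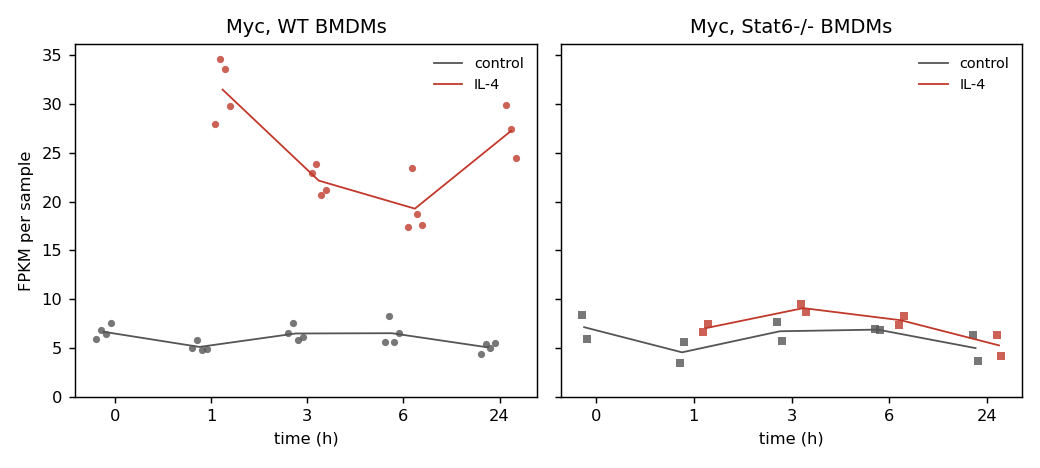
Myc in FPKM (linear axis from 0) against time in h (times evenly spaced), in WT (left) and Stat6-/- BMDMs (right), with 1 point per sample and lines through the group means, IL-4 in red and controls in grey. The 15 WT samples with IL-4 lie at 17.4 to 34.7 FPKM, above all other samples, and the 8 Stat6-/- samples with IL-4 lie at 4.19 to 9.52 FPKM.

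In Stat6-/- cells Myc did not pass the test at any time. At 1 h the IL-4 samples stood at 6.64 and 7.42 FPKM and the controls at 3.50 and 5.62 FPKM. Both IL-4 values were above both controls, with a 1.54-fold ratio and a log2 change of 0.56 ± 0.19 (SE) whose unadjusted p was 0.00509 and whose adjusted p was 1. At 3 h the IL-4 values of 9.52 and 8.66 FPKM were likewise above the control values of 7.68 and 5.76 FPKM, with a log2 change of 0.40 and an unadjusted p of 0.0404. At 6 h the IL-4 values of 7.39 and 8.29 FPKM were also above the control values of 6.93 and 6.85 FPKM, at a ratio of 1.14 and a log2 change of 0.16 (unadjusted p = 0.388). At 24 h the ratio was 1.06, where the samples at 6.35 and 4.19 FPKM with IL-4 overlapped the controls at 6.35 and 3.63 FPKM. The log2 change of Myc in WT exceeded that in Stat6-/- cells by 1.85 ± 0.23 (SE, adjusted p = 2.11e-07) at 1 h, 1.23 ± 0.23 at 3 h, 1.27 ± 0.23 at 6 h and 2.14 ± 0.24 (SE, adjusted p = 6.86e-09) at 24 h. The difference between the genotypes therefore passed the test at each time. With 2 Stat6-/- samples in a group, the 95% interval of the change in these cells at 1 h ran from 0.18 to 0.93 and at 24 h from -0.30 to 0.46.

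At 1 h few of the other genes had moved. In WT cells, 3 of the 36 genes were higher at an adjusted p under 0.05, where 5.67% of all tested loci were called higher, and none was lower, where 3.72% were. Besides Myc these were Rrs1, a factor of large subunit assembly, and Gar1, a core protein of the box H/ACA snoRNPs. Rrs1 stood at 9.33, 9.56, 9.52 and 10.9 FPKM with IL-4 and at 6.59, 7.23, 6.69 and 7.79 FPKM without, a 1.39-fold ratio (log2 change 0.42 ± 0.10, SE, adjusted p = 0.00344). Gar1 stood at 5.59, 5.93, 5.67 and 5.31 FPKM with IL-4 and at 4.22, 3.90, 4.76 and 4.32 FPKM without, a 1.31-fold ratio (log2 change 0.32 ± 0.10, SE, adjusted p = 0.0338). Neither pair of groups overlapped. Without WT replicate 3 the count at 1 h was 1, since Rrs1 (adjusted p = 0.0524) and Gar1 (adjusted p = 0.0737) no longer passed, and Gar1 also did not pass without replicate 1, 2 or 4. Myc alone passed at 1 h with a log2 change of at least 1, as did 1.09% of loci. The median log2 change of the 36 genes at 1 h was 0.03, beside -0.02 for all loci.

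From 3 h on, nearly the whole group was higher with IL-4 in WT cells. The count was 32 of 36 genes at 3 h, 33 at 6 h and 35 at 24 h, where 16.4%, 22% and 23.4% of all tested loci were called higher. No gene of the group was lower at these times, where 12.5%, 19.2% and 31.6% of loci were, though a replicate block called Polr1a lower at 6 h. The median log2 change rose from 0.51 at 3 h to 0.64 at 6 h and 0.90 at 24 h, while that of all loci was 0.01, -0.00022 and -0.07. With a log2 change of at least 1 as well, the counts were 3, 6 and 15 genes, beside 2.61%, 3.18% and 3.91% of loci. Of the 35 genes that passed at any time, 3, 29, 1 and 2 did so for the first time at 1, 3, 6 and 24 h, and 29 of the 36 had their largest increase at 24 h. The exceptions were Myc at 1 h, Wdr43 at 3 h, and Ddx18, Fbl, Heatr1, Ncl and Npm1 at 6 h.

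**Figure D2:**
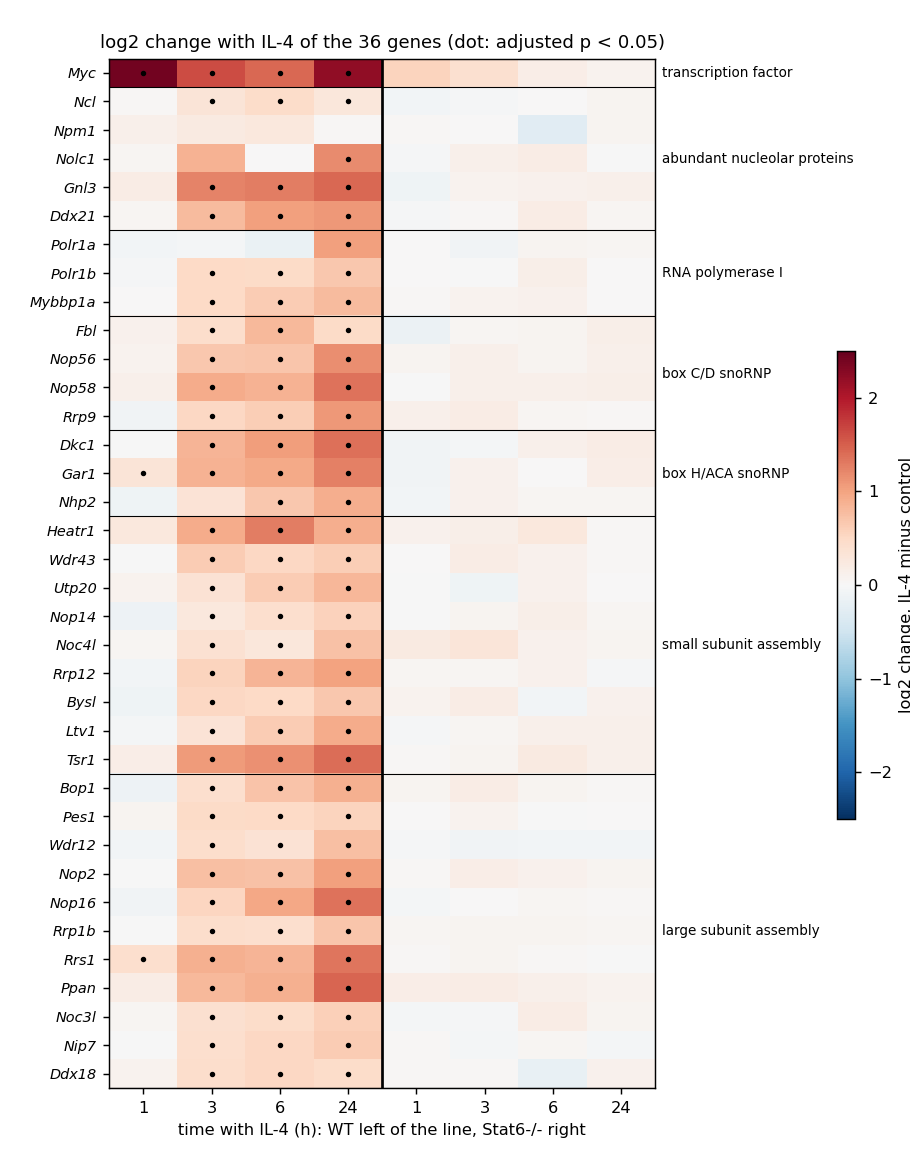
Log2 change with IL-4 of the 36 genes (rows, grouped by role) at 1, 3, 6 and 24 h in WT (left of the line) and Stat6-/- BMDMs (right), from blue (lower) over white to red (higher), with a dot where the adjusted p is under 0.05. Dots stand for 3, 32, 33 and 35 genes in WT cells and for none in Stat6-/- cells.

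The abundant nucleolar proteins differed among themselves. Gnl3 (nucleostemin), a nucleolar GTPase, was among the 3 largest increases at each time from 3 h on. At 3 h it stood at 20.7, 25.1, 21.1 and 21.2 FPKM with IL-4 and at 8.33, 9.70, 7.77 and 9.30 FPKM without, a 2.51-fold ratio (log2 change 1.24 ± 0.14, SE, adjusted p = 2.77e-09). At 24 h it stood at 28.8, 26.1 and 25.7 FPKM against 8.68, 9.24, 8.28 and 10.9 FPKM, a 2.90-fold ratio with no overlap. Ddx21, a nucleolar RNA helicase, rose from 12.7 to 28.3 FPKM in mean at 24 h. Ncl, although among the highest genes of the group, changed little in ratio. It stood at 46.1, 51.5, 44.1 and 47.5 FPKM with IL-4 at 6 h and at 33.1, 34.4, 33.9 and 35.2 FPKM without, a 1.38-fold ratio (log2 change 0.46 ± 0.07, SE, adjusted p = 2.75e-06).

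Npm1 was the gene that did not pass at any time. At 6 h its samples stood at 50.3, 50.2, 46.5 and 36.6 FPKM with IL-4 and at 42.0, 38.1, 31.5 and 39.6 FPKM without, and at 24 h at 39.0, 42.1 and 36.9 FPKM with and 40.3, 49.8, 32.9 and 32.2 FPKM without. The groups overlapped at both times. Its log2 change was largest at 6 h, at 0.27 ± 0.13 (SE, adjusted p = 0.088), and at 24 h its 95% interval was -0.24 to 0.32. Processed pseudogenes of Npm1 are known, though none carries its name in GENCODE M21, and whether any took up its reads was not tested.

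Nolc1, a chaperone of snoRNPs, was listed at 0 in a single sample, WT IL-4 replicate 2 at 6 h, where the other samples of that group stood at 17.8, 18.9 and 18.8 FPKM. The controls at 6 h stood at 7.83, 8.29, 8.25 and 8.55 FPKM. With this value in the fit Nolc1 did not pass at 3 h or 6 h, because the spread of the gene was shared over all groups, although its 4 IL-4 samples at 3 h (17.3, 18.4, 16.5 and 18.5 FPKM) were far above the controls (9.06, 9.76, 8.82 and 9.09 FPKM). With the value set to missing, a choice made after seeing the data, the log2 change was 0.87 ± 0.09 at 3 h, 1.08 ± 0.09 (SE, adjusted p = 3.18e-12) at 6 h and 1.18 ± 0.09 at 24 h. The counts of genes higher in WT cells were then 33 at 3 h and 34 at 6 h.

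The subunits of RNA polymerase I followed different courses. Polr1a and Polr1b encode its largest subunits, which form the catalytic centre, and Mybbp1a is a nucleolar regulator of the polymerase. Polr1b rose from 3 h on. It stood at 5.29, 5.02, 5.05 and 4.75 FPKM with IL-4 at 3 h and at 3.46, 3.18, 3.02 and 3.39 FPKM without, a 1.54-fold ratio (log2 change 0.50 ± 0.07, SE, adjusted p = 6.78e-08). At 24 h its ratio was 1.82, and the groups overlapped at neither time.

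Polr1a did not pass at 1, 3 or 6 h. At 6 h it stood at 3.44, 3.85, 3.16 and 2.90 FPKM with IL-4 and at 4.11, 4.55, 3.59 and 3.19 FPKM without, overlapping groups with a log2 change of -0.16 ± 0.13 (SE, adjusted p = 0.356). Each IL-4 sample was below the control of the same number, and Polr1a passed as lower at 6 h when a replicate block was added (adjusted p = 0.0298). At 24 h it stood at 8.07, 6.02 and 6.43 FPKM with IL-4 and at 2.93, 2.89, 2.72 and 2.82 FPKM without. This was a 2.41-fold ratio with no overlap (log2 change 1.02 ± 0.15, SE, adjusted p = 2.38e-07). The control level was itself lower at 24 h, where Polr1a stood at 0.665 times its level at 0 h (log2 change -0.45, adjusted p = 0.017), where the 4 samples had stood at 4.62, 4.55, 3.92 and 3.97 FPKM. The IL-4 samples at 24 h were nonetheless all above the samples at 0 h. Mybbp1a stood at a mean of 35.5 FPKM with IL-4 and 20.0 FPKM without at 24 h, a 1.78-fold ratio, and passed from 3 h on.

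**Figure D3:**
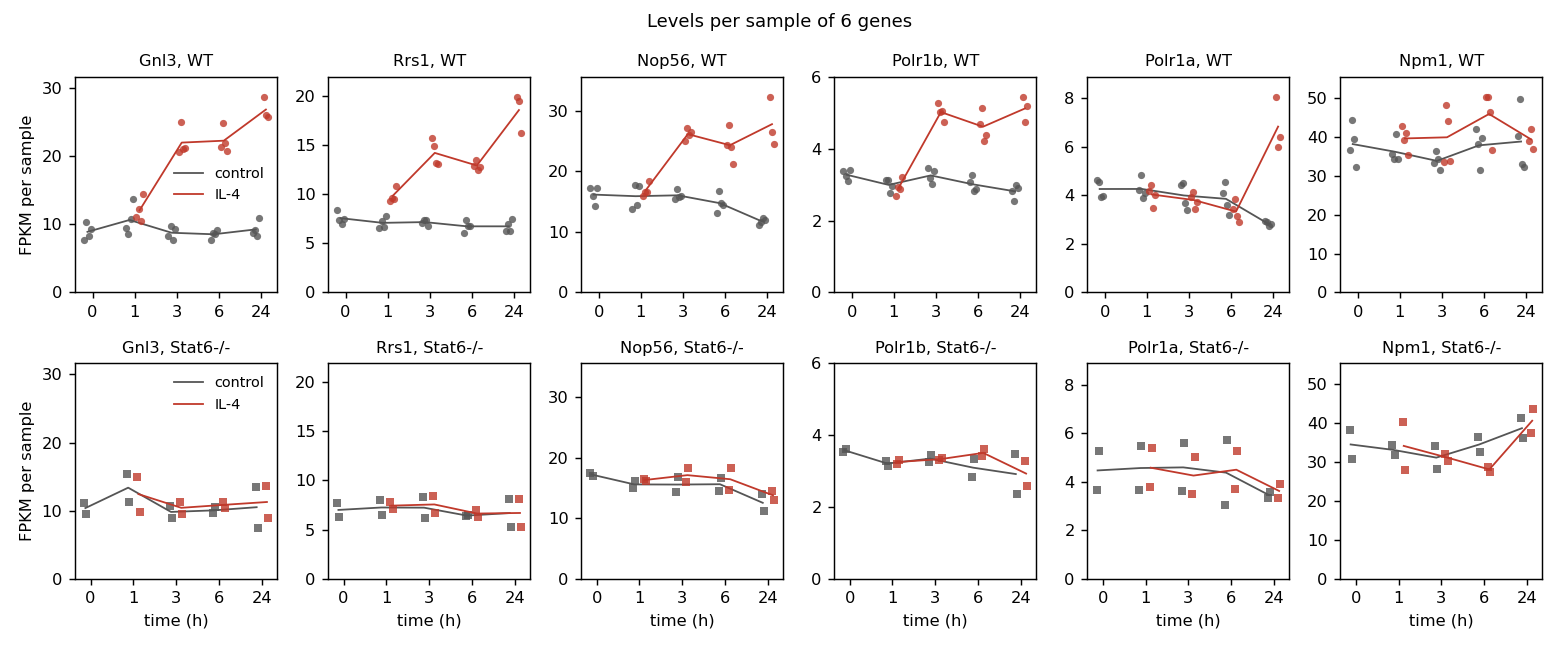
FPKM per sample (linear axes from 0) of Gnl3, Rrs1, Nop56, Polr1b, Polr1a and Npm1 against time in h (evenly spaced) in WT (top) and Stat6-/- BMDMs (bottom), with IL-4 in red, controls in grey and lines through the group means. In WT cells Gnl3, Nop56 and Polr1b are above their controls from 3 h on, Rrs1 from 1 h on, Polr1a only at 24 h (8.07, 6.02 and 6.43 FPKM), and Npm1 overlaps its controls.

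Proteins of the snoRNPs were higher from 3 h on, apart from Nhp2, which passed from 6 h on. The box C/D snoRNPs, which guide methylation of ribosomal RNA, contain the methyltransferase fibrillarin (Fbl) and the core proteins Nop56 and Nop58, and Rrp9 belongs to the snoRNP that guides early cleavage of the precursor. All 4 passed at 3, 6 and 24 h. Nop56 stood at 25.0, 27.1, 26.1 and 26.5 FPKM with IL-4 at 3 h and at 15.4, 17.1, 15.7 and 15.98 FPKM without, a 1.63-fold ratio (log2 change 0.67 ± 0.09, SE, adjusted p = 7.57e-08). At 24 h it stood at 32.3, 26.6 and 24.5 FPKM against 11.1, 11.7, 12.3 and 11.9 FPKM, a 2.37-fold ratio with a log2 change of 1.17. Its controls at 24 h were 0.726 times the level at 0 h (log2 change -0.43, adjusted p = 0.000686). Nop58 and Rrp9 reached 2.74-fold and 2.37-fold at 24 h.

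Fbl was low in these tables and had its largest increase at 6 h, where it stood at 5.82, 6.51, 4.44 and 5.42 FPKM with IL-4 and at 2.80, 2.69, 2.68 and 2.75 FPKM without. The groups were apart, with a 2.03-fold ratio (log2 change 0.80 ± 0.13, SE, adjusted p = 4.31e-06), and at 24 h the ratio was 1.52. Its calls at 3 h and 24 h rested on single samples, since Fbl did not pass at 3 h without WT replicate 2 (adjusted p = 0.173) or at 24 h without replicate 3 (adjusted p = 0.0586).

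The box H/ACA snoRNPs convert uridine to pseudouridine and contain dyskerin (Dkc1), the enzyme, with Gar1 and Nhp2. Gar1 stood at 12.1, 9.42 and 9.05 FPKM with IL-4 at 24 h and at 3.61, 4.32, 2.94 and 3.80 FPKM without, a 2.78-fold ratio with no overlap (log2 change 1.26 ± 0.11, SE, adjusted p = 3.51e-12). Dkc1 rose from a mean of 2.16 to 7.30 FPKM at 24 h, which at 3.38-fold was the second ratio of means after Myc. Nhp2, at 22.3 FPKM in controls, reached 42.3 FPKM and passed at 6 h and 24 h but not at 3 h.

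All 9 factors of small subunit assembly passed at 3, 6 and 24 h, with ratios of 1.22 to 2.31 at 3 h and 1.54 to 2.98 at 24 h. Tsr1, which acts on late precursors of the small subunit in the cytoplasm, stood at 10.8, 12.1, 9.47 and 10.6 FPKM with IL-4 at 3 h and at 4.78, 5.42, 4.18 and 4.20 FPKM without. This was the third largest log2 change at that time (1.06 ± 0.10, SE, adjusted p = 3.54e-11), and its ratio of 2.31 at 3 h went to 2.98 at 24 h. Heatr1, a component of the small subunit processome that is linked to transcription by RNA polymerase I, peaked at 6 h, at 13.4, 13.0, 11.4 and 10.4 FPKM with IL-4 and 4.73, 4.50, 4.01 and 4.25 FPKM without (log2 change 1.27 ± 0.13, SE, adjusted p = 2.80e-10). At 24 h Heatr1 stood at 10.2, 8.23 and 9.17 FPKM with IL-4, still above its controls at 4.41, 4.06, 4.39 and 4.88 FPKM. Among the others at 24 h, Rrp12 changed 2.58-fold, Utp20 2.12-fold, Ltv1 1.98-fold, Bysl 1.79-fold, Noc4l 1.76-fold, Wdr43 1.59-fold and Nop14 1.54-fold.

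All 11 factors of large subunit assembly also passed at 3, 6 and 24 h, with ratios of 1.36 to 1.98 at 3 h and 1.48 to 3.01 at 24 h. Ppan had the second largest log2 change of the whole group at 24 h, after Myc. It stood at 21.02, 19.0 and 18.2 FPKM with IL-4 and at 6.29, 6.12, 6.53 and 6.83 FPKM without, a 3.01-fold ratio (log2 change 1.45 ± 0.11, SE, adjusted p = 6.03e-14). Rrs1 went on from its early rise to 19.9, 19.5 and 16.2 FPKM at 24 h, against 6.20, 6.94, 6.26 and 7.49 FPKM, a 2.76-fold ratio with no overlap. Pes1, Bop1 and Wdr12, which form a complex needed for maturation of the large subunit, changed 1.51-fold, 1.91-fold and 2.12-fold at 24 h. Nop16 changed 2.75-fold, the methyltransferase Nop2 2.16-fold, Rrp1b 1.89-fold, Noc3l 1.68-fold, Nip7 1.64-fold and the helicase Ddx18 1.48-fold.

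The size of the increase was also read against the sequence features. At 24 h the median log2 change was 0.83 for the 7 genes with CACGTG in the window and 0.91 for the 23 without. At 3 h it was 0.51 for both, and at 6 h it was 0.63 with the letters and 0.53 without. Genes with a snoRNA gene inside had a median of 1.36 at 24 h (n = 8, from 0.27 for Ncl to 1.45 for Ppan), beside 0.86 for the other 28 genes. At 3 h these medians were 0.84 and 0.46. The 5 genes with TTC and GAA at the STAT spacing had medians of -0.08, 0.53, 0.98 and 1.09 at 1, 3, 6 and 24 h. Medians of the genes without these letters are not given here. These are descriptions of small sets that share samples, and no test was made.

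In Stat6-/- cells none of the 36 genes passed at 1, 3, 6 or 24 h, where 0% of the 11146 loci did at each time (limma). At an unadjusted p under 0.05 there were 1, 3, 0 and 0 genes, among 51, 131, 88 and 37 loci, and Tukey's adjustment within each gene, over the 16 groups without the 0 h controls, also called none of the 36. The unadjusted ones were Myc at 1 h and at 3 h Myc, Wdr43 and Noc4l. The median log2 change of the group was 0.02, 0.08, 0.10 and 0.05. At every time the 95% interval lay below a log2 change of 1 for 35 of the 36 genes, the exception being Nolc1, whose spread is set by the value listed at 0, and below 0.5 for 34, 30, 30 and 33 genes. Gnl3 at 24 h illustrates the spread between the 2 Stat6-/- replicates, at 13.6 and 8.99 FPKM with IL-4 and 13.5 and 7.51 FPKM without. Each replicate stood near the control of the same number.

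The response of WT cells was tested against that of Stat6-/- cells as a difference of differences. The WT log2 change was above the Stat6-/- one for 1, 22, 28 and 32 genes at 1, 3, 6 and 24 h, where 2.21%, 6.98%, 9.29% and 12.2% of loci were called in that direction, and no gene of the group was called the other way. Without Stat6-/- replicate 2 the count at 3 h was 14. At 24 h the difference was 1.36 ± 0.18 (SE, adjusted p = 2.85e-07) for Ppan, 1.34 ± 0.18 for Rrs1, 1.33 ± 0.25 for Gnl3, 1.03 ± 0.16 for Nop56, 0.97 ± 0.24 (SE, adjusted p = 0.00222) for Polr1a and 0.67 ± 0.12 for Polr1b. Ncl, Fbl, Npm1 and Nolc1 did not pass at 24 h, with differences of 0.21, 0.32, -0.03 and 1.19. With the 0 of Nolc1 set to missing, its difference of 1.19 had an adjusted p of 1.85e-07 and the counts were 23, 29 and 33 from 3 h on. Summed levels of some other lists stood apart between the genotypes before IL-4, with no test made. At 0 h the summed level of the neutrophil markers was 674.5 and 771.6 FPKM in the Stat6-/- samples and 373.4 to 487.8 FPKM in WT, and that of the mast cell and basophil markers 1.36 and 1.72 FPKM against 0.35 to 0.63 FPKM. The summed cell cycle genes stood at 296.7 and 387 FPKM against 437.2 to 560.1 FPKM. These sums did not overlap between the genotypes. Nor did those of the B cell markers (7.14 and 7.67 FPKM against 4.58 to 5.88 FPKM) and the dendritic cell markers (0.992 and 1.185 FPKM against 0.585 to 0.682 FPKM). The sums of the T cell, erythroid and stromal markers overlapped. The part of all these sums in the genotype differences was not tested. At 1 h the difference was 0.38 for Rrs1 (adjusted p = 0.42) and 0.41 for Gar1 (adjusted p = 0.344), so that the early rise of these genes was not shown to depend on the genotype.

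Without IL-4, some of the genes were called lower late in culture, and their number depended on the samples used. Against 0 h, WT controls showed no gene of the 36 past the test at 1, 3 or 6 h, where 2%, 0.144% and 0.135% of loci passed in either direction. At an unadjusted p under 0.05 (limma) there were 3, 0 and 3 genes, among 1306, 722 and 903 of the 11146 loci. At 24 h, 8 genes were lower, where 11.6% of loci were lower, and none was higher, where 5.67% of loci were. The 8 were Nop56, Polr1a, Dkc1, Bysl, Rrp12, Noc4l, Pes1 and Utp20, with log2 changes from -0.45 to -0.23, and the count lay between 2 and 4 when a WT replicate was left out. With the replicate number as a block, 19 genes differed. The share of all loci under these alternatives is not given here, so the counts are not read as a result about the group. Myc itself went from 6.67 FPKM at 0 h to 5.07 FPKM in mean (log2 change -0.34, adjusted p = 0.0713). All comparisons with IL-4 use the control of the same time. Each increase at 24 h is therefore against the 24 h control, which was called lower than at 0 h for 8 of the 36 genes.

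Other lists of related genes, chosen by textbook function, were read beside the group. Of 89 other ribosome assembly factors, 7, 60, 63 and 67 were higher in WT cells at 1, 3, 6 and 24 h and 3, 2, 2 and 4 lower, with median log2 changes of -0.02, 0.29, 0.34 and 0.42. The largest at 24 h were Rrp8 (4.69 to 14.9 FPKM), Grwd1 (4.72 to 13.4 FPKM) and Wdr46 (6.74 to 15.3 FPKM). Of 12 other factors of RNA polymerase I, 5 were higher at 3 h, 6 at 6 h and 3 at 24 h, where 3 were lower, beside 16.4%, 22% and 23.4% of all loci higher and 31.6% lower at 24 h. The counts at 24 h are near that background. At 6 h Polr1e went from 1.55 to 2.30 FPKM, the initiation factor Rrn3 from 7.82 to 10.1 FPKM and Polr1c from 19.1 to 23.1 FPKM.

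For the mRNAs of the ribosomal proteins themselves, few calls were made. Of 79 cytosolic ribosomal protein genes, none passed at 1 h or 3 h and 5 were higher at 6 h. At 24 h, 3 were higher and 4 lower. The median log2 changes were 0.12, 0.10, 0.21 and 0.02 at 1, 3, 6 and 24 h. Of all tested loci, 22% were higher at 6 h, and 23.4% were higher and 31.6% lower at 24 h. The counts of ribosomal protein genes at 6 h and 24 h were smaller shares than these. Rpl26 (9.41 to 18.2 FPKM) and Rpl38 (17.4 to 28.3 FPKM) were higher at 24 h and Rpl35a (140 to 103 FPKM) was lower. Ribosomal protein genes have many processed pseudogenes, and how the authors' counting split reads between copies is not stated, so their values are uncertain.

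**Figure D4:**
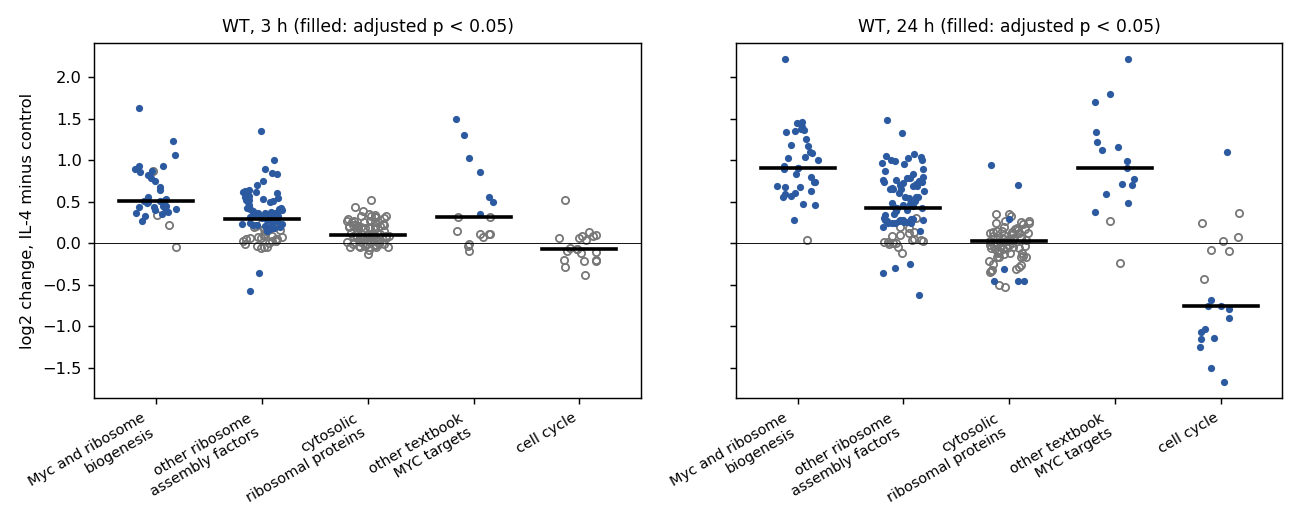
Log2 change with IL-4 in WT BMDMs at 3 h (left) and 24 h (right), 1 point per gene, for the 36 genes and 4 other lists, with bars at the list medians and filled points where the adjusted p is under 0.05. At 24 h the medians are 0.90 for the 36 genes, 0.42 for other assembly factors, 0.02 for ribosomal proteins, 0.91 for other textbook Myc targets and -0.76 for cell cycle genes.

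Genes outside the ribosome that are commonly named as Myc targets were also read. Of 17 tested, none passed at 1 h, and 7, 12 and 15 were higher at 3, 6 and 24 h, with none lower, beside 16.4%, 22% and 23.4% of all loci higher. At 24 h the transferrin receptor Tfrc went from 19.4 to 97.3 FPKM, spermidine synthase Srm from 6.64 to 25.2 FPKM and the DNA repair enzyme Apex1 from 11.5 to 39.6 FPKM. In the Myc network, partners and antagonists that share the E-box, 9 genes were tested, of which 0, 0, 3 and 3 were higher and 2, 3, 2 and 3 lower at 1, 3, 6 and 24 h. At 24 h, where 23.4% of all loci were higher and 31.6% lower, these counts are near the background. At 1 h the lower genes were Mnt (19.3 to 9.62 FPKM) and Mxd1 (7.30 to 3.14 FPKM), and at 3 h these and Mxi1. The lower counts at 1 h and 3 h were larger shares than those of all loci called lower. Mxd1 (6.91 to 2.83 FPKM), Mxi1 (12.8 to 5.81 FPKM) and Mxd3 (1.58 to 0.67 FPKM), which encode repressors that compete for Max, were lower at 24 h, and Max, Mlx and Mlxip were higher.

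Several cell cycle genes were lower late. Of 20 tested, none passed at 1 h or 3 h, 6 were lower at 6 h, and at 24 h 12 were lower and 1, Pcna, was higher (Pcna was named after its value was seen), where 19.2% of all loci were lower at 6 h and 31.6% at 24 h. Ccnb2 went from 15.2 to 4.01 FPKM, Birc5 from 21.6 to 6.85 FPKM and Cdc20 from 7.26 to 2.44 FPKM at 24 h. The others that were lower at 24 h were Mki67, Top2a, Cdk1, Ccnb1, Ccna2, Aurka, Aurkb, Plk1 and Bub1. None of the 6 Mcm genes of the replicative helicase passed at 24 h. At 6 h the 6 lower genes were Mcm3, Mcm4, Mcm5, Mcm6, Mcm7 and Pcna. Pcna encodes the clamp of DNA polymerases. It was lower at 6 h (138 to 95.8 FPKM) and higher at 24 h (120 to 257 FPKM). In the difference between the genotypes at 24 h, 1 of the 20 was lower and 1 higher.

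Markers of other cells also moved at 24 h. Of 5 neutrophil markers, 3 were lower with IL-4 in WT cells at 24 h, S100a8 from 222 to 96.0 FPKM, S100a9 from 233 to 128 FPKM and Camp from 11.3 to 5.07 FPKM, and the B cell marker Cd79b went from 3.98 to 1.32 FPKM. The summed level of the neutrophil markers was 195 to 287 FPKM in the 3 IL-4 samples and 404 to 550 FPKM in the 4 controls. None of these markers passed at 1, 3 or 6 h. Of 7 macrophage markers, 1, 2 and 4 were lower at 3, 6 and 24 h, beside 12.5%, 19.2% and 31.6% of all loci, with Fcgr1 (112 to 21.7 FPKM), Mertk (26.0 to 6.41 FPKM) and Emr1 (1093 to 473 FPKM) in front at 24 h. In bulk samples fewer cells of a type and less RNA per cell cannot be told apart, and the part of these markers in the results at any time was not tested.

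The loci whose pattern was most like that of Myc were not ribosome genes. Over the 18 group means, among 2674 loci whose means spanned at least 1 on the log2 scale, the highest Pearson correlations with Myc were those of Ripk2 (0.95), Hbegf (0.94), 2700038G22Rik (0.94), Socs1 (0.94) and Klf4 (0.93). Ripk2, a kinase of innate immune signalling, stood at means of 42.3, 22.5, 19.3 and 17.1 FPKM at 1, 3, 6 and 24 h of IL-4 in WT cells. Klf4, a transcription factor, stood at 14.5, 15.1, 14.5 and 12.3 FPKM, and Socs1, an inhibitor of cytokine signalling, at 95.3, 90.8, 54.5 and 14.8 FPKM. Within the group the closest were Rrs1 (0.87, rank 37) and Gar1 (0.84, rank 65), the genes that passed at 1 h, and the least alike of the 17 genes of the group with that span was Polr1a (0.30, rank 885). Genes of the group with a smaller span, Npm1 and Ncl among them, were not ranked. The span includes the change with IL-4, so the filter itself favours genes that changed with it. The group means share genotype and time, so these correlations are descriptions and carry no p.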

How the data were processed

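The RNA was poly-A selected (TruSeq) and sequenced as paired reads. According to the submitters' processing notes and the study's methods, the authors aligned reads to mm10 with TopHat2 2.0.7 and computed FPKM with Cufflinks 2.0.2, and they deposited 1 FPKM table per sample. The annotation is not given in the sources used here, and counting by strand is not stated. Of the 36 genes, 16 overlap an exon on the opposite strand, so their values are uncertain to that extent.

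FPKM are not counts, so log2(FPKM + 1) was tested with limma 3.58.1 (R 4.3.3) over the 11146 of 23847 loci that reached 1 FPKM in at least 1 sample. A model of 18 group means over all 53 samples (35 residual degrees of freedom, moderated with a trend) gave each contrast, with Benjamini-Hochberg adjustment over loci and a threshold of 0.05. Values under 0.0001 FPKM were set to 0. The study's own test was made gene by gene with Tukey's adjustment, which was run as an alternative. Other alternatives were a pseudocount of 0.1, no filter, quantile normalization, median centring, a fit on the compared samples only, an added threshold of 1 on the log2 change, a replicate block, leaving out each replicate and, chosen after seeing the data, setting 1 value of Nolc1 listed at 0 to missing. Scripts were tested on simulated data. Python 3.11.15, pandas 2.3.3 and numpy 2.4.6 were used for the tables. Relative depth was read from the steps of low FPKM values, and the depth in reads is unknown.

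The 36 genes and the other lists were chosen with earlier results of these data known. Values per sample and full statistics were given, by a rule written with the design, for Myc, Ncl, Npm1, Fbl, Nop56, Polr1a and Polr1b and, at each time in WT cells, for the 3 genes of the group with the largest increase and the 3 with the largest decrease among those that passed with no overlap between IL-4 and control samples. Of the other lists, the 3 largest passing changes were named at the time with most passing genes. The 5 loci most like Myc had the highest Pearson r over the 18 group means among loci whose means span at least 1 on the log2 scale. Any other gene given with values was chosen after its values were seen.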

Additional observations from a re-analysis of the deposited data

Results flagged for a closer look

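Of 104 groups of 4 samples checked for the genes described in full, 2 held a sample far from the others by Dixon's ratio at its 95% limit, and chance alone flags about 1 group in 20. Rrs1 stood at 10.9 FPKM (10.86) in 1 WT sample at 1 h of IL-4, and Gnl3 stood at 25.1 FPKM (25.07) in 1 WT sample at 3 h of IL-4. Both are the highest of their groups.

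The other results noted here are differences between the genotypes, given as the log2 change with IL-4 in WT minus that in Stat6-/- cells, each past an adjusted p of 0.05 (limma). For Myc this was 1.85, 1.23, 1.27 and 2.14 at 1, 3, 6 and 24 h. At 3, 6 and 24 h it was 0.54, 0.62 and 1.03 for Nop56, 0.77, 0.92 and 1.09 for Gar1, and 0.83, 0.81 and 1.34 for Rrs1. At the same times it was 0.50, 0.34 and 0.67 for Polr1b, 0.63, 0.76 and 1.36 for Ppan, and 1.16, 1.18 and 1.33 for Gnl3. The factors of the small subunit Heatr1 (0.78, 1.02 and 0.88) and Tsr1 (0.98, 0.91 and 1.27) also differed at these times. Ncl (0.44) and Fbl (0.73) differed at 6 h and Polr1a (0.97) at 24 h. The difference of Fbl did not pass without WT replicate 1 (0.71), WT replicate 2 (0.65) or Stat6-/- replicate 2 (0.46).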

How the results depend on the processing

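Depth is known only relative to other samples, each Stat6-/- group held 2 samples, and 1 WT sample at 24 h of IL-4 is not analysed here. In all, 243 counts under the alternatives stayed within 1.5 times the reported count and 22 did not. For the genes described in full, 817 log2 changes stayed on their side of the threshold, 29 with the same direction no longer passed, and none reversed. The count of genes lower in WT controls at 24 h than at 0 h was the least stable. It was 8 as reported, 5 with no filter on low values, 2 with quantile normalization, 4 with median centring, 5 with only the samples compared and 0 with a log2 change of at least 1 as well. With that threshold the counts higher in WT cells were 1, 3, 6 and 15 at 1, 3, 6 and 24 h, and the genotype differences were 2, 3 and 13 at 3, 6 and 24 h. Tukey's adjustment over 16 groups gave 2, 30, 32 and 32 genes higher.

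When a replicate was left out, the counts higher in WT cells were 1 to 2, 31 to 32, 32 to 34 and 33 to 34 at 1, 3, 6 and 24 h. The genotype differences were 14 to 21, 23 to 26 and 31 to 32 at 3, 6 and 24 h, the lowest count at 3 h being the one without Stat6-/- replicate 2. The genes that differed between WT controls at 24 h and 0 h numbered 2 to 4. Those that differed between the genotypes at 0 h numbered 0 to 1, Heatr1 passing without Stat6-/- replicate 1 (log2 difference 0.44, adjusted p = 0.0196, limma).

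Deviations from the group means of equally numbered samples correlated with r of 0.03 to 0.56 in WT (mean 0.27, against -0.09 for different numbers). In Stat6-/- cells r was 0.79 to 0.90 for equal numbers. With 2 samples per group the deviations mirror each other, so r for different numbers was -0.90 to -0.79. The mirroring does not set which sign belongs to equal numbers. In WT every pair was above 0.1 at 3 and 6 h but not at 1 or 24 h, and the numbers were not taken as pairs throughout. With a replicate block, 4, 33, 34 and 35 genes were higher in WT cells, Heatr1 being added at 1 h (adjusted p = 0.0312), and 1 was lower at 6 h (Polr1a, -0.16, adjusted p = 0.0298). The block gave 0 genes in Stat6-/- cells, genotype differences for 1, 25, 33 and 32 genes, 1 gene for WT controls at 1 h against 0 h (Wdr43, 0.15, adjusted p = 0.0472) and 19 at 24 h. In Stat6-/- cells the block added genes at an unadjusted p under 0.05 (limma). These were Noc4l at 1 h (0.0438) and Noc3l (0.0298) and Heatr1 (0.0475) at 6 h. The replicate number was set as a block within each genotype, so it gives no value for Stat6-/- against WT at 0 h. The cause of these shifts was not tested.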
